A study of Mus musculus with 12 samples.

Results

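The core circadian clock genes of mouse liver were followed as 10 genes: the activators Arntl (also called Bmal1), Clock and Npas2, the period genes Per1, Per2 and Per3, the cryptochromes Cry1 and Cry2, and the REV-ERB nuclear receptors Nr1d1 and Nr1d2. They were taken by gene symbol, with every probe set that the array's annotation gives to each, and are 10 of the 18193 genes that the annotation names. The array held 23 probe sets for them, of which 21 passed a filter on dim probe sets. Both Npas2 probe sets were too dim, so 9 of the 10 genes were tested, each by its brightest probe set.

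The study compared livers of Ire1α null and control mice with and without endoplasmic reticulum (ER) stress. Ire1α is the product of Ern1, an ER membrane sensor of unfolded protein with kinase and RNase activity. The groups were null livers with tunicamycin (titles Fe-CRE+Tm), null livers with vehicle (Fe-CRE+), control livers with tunicamycin (Fe+CRE+Tm) and control livers with vehicle (Fe+CRE+), with 3 arrays labelled biological replicates in each. All mice were 3 months old and of the C57Bl/6J background, and both genotypes are labelled CRE+. Tunicamycin, which blocks N-linked glycosylation, was given at 2 µg per g of body weight, the vehicle was 150 µM dextrose, both were injected into the peritoneum, and livers were collected 8 hours afterwards. The promoter that drives Cre, the deleted part of Ern1, the hour of the day, the feeding of the mice and whether a replicate is 1 animal or a pool are, in the sources used here, not given.

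The clock is a feedback loop of transcription. ARNTL pairs with CLOCK, or with its relative NPAS2, and the pair binds E-boxes to switch on the Per, Cry and Nr1d genes. PER and CRY proteins return to the nucleus and inhibit the pair, while the REV-ERB proteins repress Arntl through elements that they share with the activating ROR receptors, so that in a normal liver Arntl and the Nr1d genes peak at opposite times of day.

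The promoters of the 3 genes that changed in some comparison are shown for the elements of this loop. They are RefSeq sequences of build GRCm38.p6, 250 bases before to 50 bases after a gene start, written 5′ to 3′ on the strand of the gene, with matches in capitals. RefSeq has more than 1 start for Arntl and Per1, and the window with a match is shown. The Arntl gene spans 113178471 to 113314126 of chromosome 7, Per1 spans 69095108 to 69109965 of chromosome 11 and Per3 spans 150997018 to 151044707 of chromosome 4. The Arntl window holds TAGGTCA, the ROR and REV-ERB element, at position 30 from the start. The Per1 window holds the E-box CACGTG at position -166. The Per3 window holds the D-box TTATGTAA at 2 places, positions -205 and -158.
Arntl, chr7:113207261-113207560, plus strand: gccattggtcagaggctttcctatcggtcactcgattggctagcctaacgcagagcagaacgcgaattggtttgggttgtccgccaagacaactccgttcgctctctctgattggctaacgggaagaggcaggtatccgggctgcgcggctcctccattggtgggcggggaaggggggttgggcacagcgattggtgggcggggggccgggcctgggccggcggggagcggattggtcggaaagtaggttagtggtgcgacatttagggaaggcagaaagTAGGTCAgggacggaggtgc
Per1, chr11:69098699-69098998, plus strand: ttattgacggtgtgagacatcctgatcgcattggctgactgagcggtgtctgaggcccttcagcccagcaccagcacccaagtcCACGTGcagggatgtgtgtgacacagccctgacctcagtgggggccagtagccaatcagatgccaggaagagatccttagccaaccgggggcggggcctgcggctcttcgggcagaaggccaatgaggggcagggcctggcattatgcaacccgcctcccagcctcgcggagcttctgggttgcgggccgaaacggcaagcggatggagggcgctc
Per3, chr4:151044616-151044915, minus strand: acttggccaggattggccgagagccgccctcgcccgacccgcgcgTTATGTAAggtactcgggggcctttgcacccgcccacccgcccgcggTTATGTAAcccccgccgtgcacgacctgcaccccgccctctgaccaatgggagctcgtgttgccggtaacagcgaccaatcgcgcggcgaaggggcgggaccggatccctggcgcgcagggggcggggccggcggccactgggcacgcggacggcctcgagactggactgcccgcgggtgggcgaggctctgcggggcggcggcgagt

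RefSeq gave 13 such windows for 9 of the genes, and each was searched on both strands. The E-box CACGTG stood in 2 of the 13 windows (Per1 and Cry1), against 7.15% of all 32851 promoters of the table. The E-prime box CACGTT stood in 3 windows (Cry1, Cry2 and Nr1d1), against 4.68% of all promoters. The D-box, searched as TTATGTAA or TTACGTAA, stood in 1 window (Per3), against 1.06%, and the ROR and REV-ERB element, searched as TAGGTCA or TGGGTCA, in 1 window (Arntl), against 6.45%. The cyclic AMP response element TGACGTCA (1.79% of all promoters), the C/EBP-ATF element TGATGCAA (0.895%) and the ATF6 element TGACGTGG (0.676%) stood in none of the 13. The E-box, the E-prime box (AACGTG on its other strand) and the ATF6 element share the letters ACGTG. A match describes letters in a window of 300 bases and not a site that a factor occupied.

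Across the 12 arrays the mean deposited intensity without the extreme values lay between 228 and 303, and arrays of a group correlated at r = 0.9488 to 0.9865 over all genes. Ddit3, a standard marker of ER stress, ran from 9677.43 to 11177.2 in null tunicamycin livers against 121.18 to 292.88 in null vehicle livers, and from 10942.7 to 11392.2 in control tunicamycin livers against 131.74 to 150.78 in control vehicle livers. Ern1 ran from 2146.61 to 4792.51 (null tunicamycin), 1082.74 to 1488.73 (null vehicle), 2950.39 to 3696.71 (control tunicamycin) and 1119.14 to 1845.97 (control vehicle), and since the deleted part is not known, its probe set does not check the genotype. Null tunicamycin replicate 2 stood apart in kidney markers: 9 of 13 measured kidney markers lay over 1 log2 unit above the highest of the other 11 arrays, and the list's mean log2 level was 9.62 there against at most 5.87 elsewhere. Of 3 measured bile duct markers 2 lay over 1 log2 unit above the other arrays there too, with a mean of 7.94 against at most 6.06. Control vehicle replicate 1 stood apart within its group in Per1, Nr1d1 and Clock, as given beside those genes. The mean level of 11 measured hepatocyte markers lay between 13.5 and 13.6 log2 units on every array. None of them was called with tunicamycin in either genotype. These markers lie near the top of the intensity range, where quantile normalization makes arrays alike, so their level does not measure hepatocyte content.

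Every change below is a difference of log2(intensity + 16) after quantile normalization, with the standard error and the Benjamini-Hochberg adjusted p of a limma fit over 14568 genes and 3 arrays per group. A gene was called at an adjusted p under 0.05. The added 16 makes the changes of dim genes smaller than on the raw scale, and values per array are the deposited intensities, given in the order of replicates 1, 2 and 3. RNA came from whole liver, so fewer cells of a type and less RNA per cell cannot be told apart.

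Tunicamycin changed a few of the clock genes, and among them Arntl had the largest change in each genotype. In null livers 1 of the 9 tested genes rose (Arntl; 7.59% of all genes rose) and 1 fell (Per3; 9.23% of all genes fell). In control livers 2 rose (Arntl and Per1; 11.6% of all genes rose) and 1 fell (Per3; 13.3% of all genes fell). Read against these shares, counts of 1 or 2 in 9 show nothing particular to the clock genes. The median change of the 9 genes was 0.20 in null and 0.04 in control livers, against -0.07 and -0.11 over all genes. Arntl and Per3 were the 2 genes called in both genotypes, each in the same direction, although with array medians centred or with values as deposited only Arntl was called in null livers (1 rose and 0 fell).

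**Figure D1:**
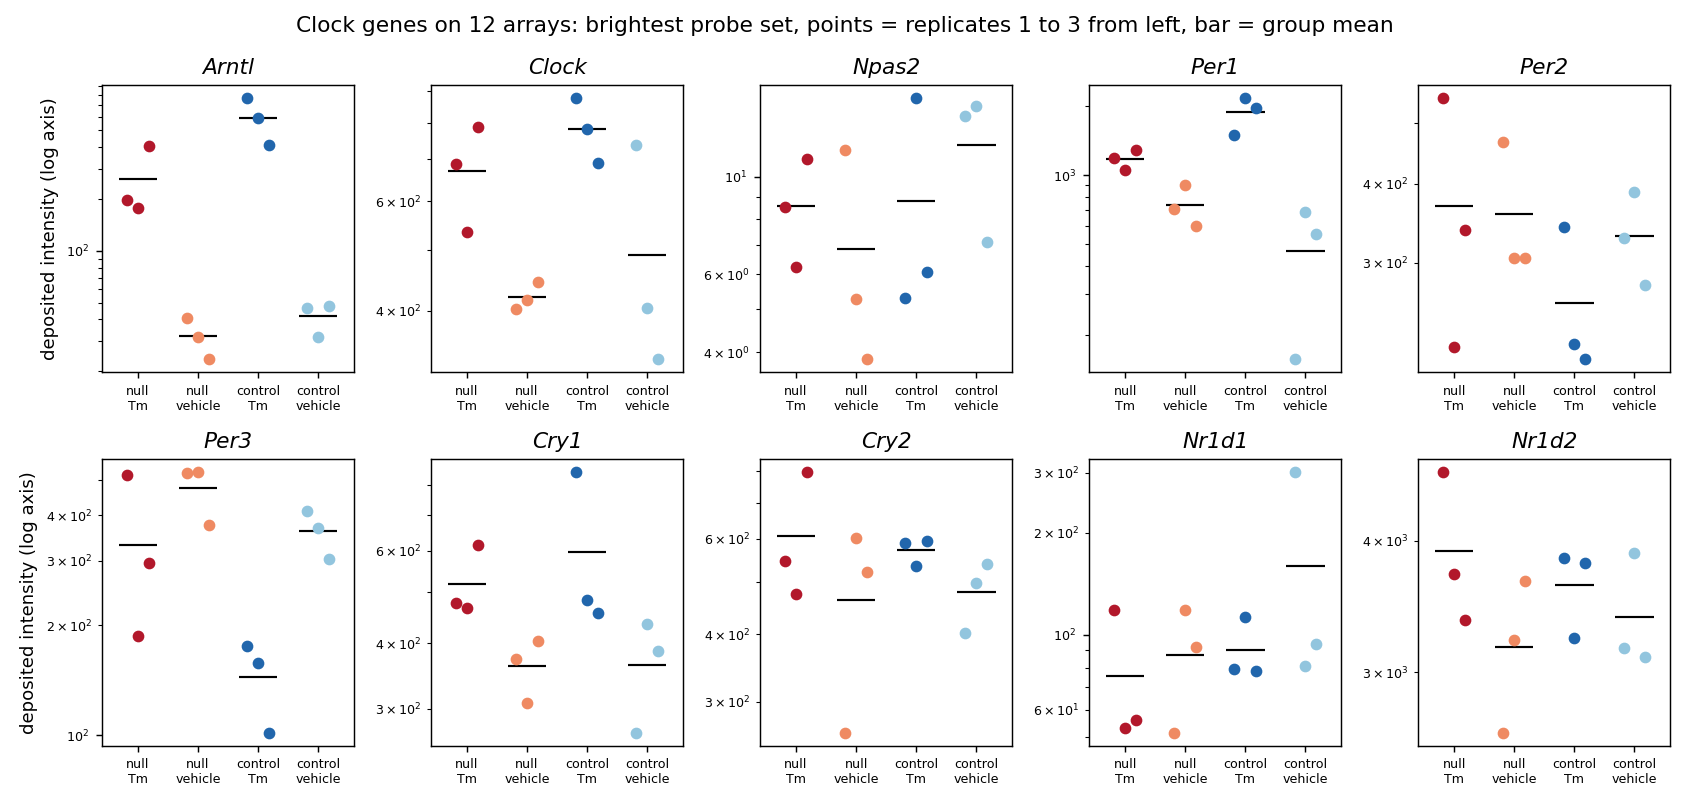
Deposited intensity of each clock gene on the 12 arrays, at its brightest probe set, on a log axis that differs between panels. Points are replicates 1 to 3 from left to right, bars are group means, and Tm is tunicamycin. Arntl on the 6 arrays with tunicamycin (176.9 to 769.3) lies above all 6 arrays with vehicle (23.59 to 47.68), and the lowest Per1 point (156.49) and the highest Nr1d1 point (302.39) belong to control vehicle replicate 1.

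Arntl encodes the basic helix-loop-helix partner without which the loop does not run. Its brightest probe set, 1425099_a_at, read 197.06, 176.9 and 406.8 in null tunicamycin livers. The null vehicle livers read 40.94, 31.76 and 23.59. The control tunicamycin livers read 769.3, 589.59 and 410.92, and the control vehicle livers 46.48, 31.7 and 47.68. No tunicamycin array overlapped with a vehicle array in either genotype, and each control tunicamycin array lay above each null tunicamycin array. Arntl rose by 2.32 ± 0.26 in null livers (5.0-fold, adjusted p = 0.000115) and by 3.21 ± 0.26 in control livers (9.3-fold, adjusted p = 5.14e-06). Ordered from the largest increase, it ranked 77 in null and 48 in control livers among the 14568 genes. Without null tunicamycin replicate 2 the rise in null livers was 2.42 (adjusted p = 0.000247), and without control vehicle replicate 1 the rise in control livers was 3.25 (adjusted p = 3.77e-05).

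Under tunicamycin Arntl was lower in null than in control livers, with a difference of -1.17 ± 0.26 (2.2-fold, adjusted p = 0.0251). The mean intensity was 260.3 ± 127.3 in null and 589.9 ± 179.2 in control livers (SD, n = 3 each). The difference lost its call without null tunicamycin replicate 1 (-0.99, adjusted p = 0.107), null tunicamycin replicate 2 (-1.06, adjusted p = 0.0683), control tunicamycin replicate 1 (-1.01, adjusted p = 0.111) or control tunicamycin replicate 2 (-1.14, adjusted p = 0.108). It stayed below 0 in all 27 alternatives and was called in 16 of them. The 5′ to 3′ ratio of the Gapdh control probe sets, a measure of RNA quality, did not overlap in these arrays, at 0.37 to 0.435 in null tunicamycin against 0.523 to 0.577 in control tunicamycin livers (exact permutation p = 0.1, two-sided, with no smaller p possible for 3 arrays against 3). Adjusted for this ratio, the Arntl difference was -1.14 and lost its call (adjusted p = 0.0605). With vehicle the difference between null and control livers was -0.27 ± 0.26 (adjusted p = 0.988). The test of the difference between the 2 tunicamycin responses gave -0.89 ± 0.36, with an unadjusted p of 0.0303 and an adjusted p of 0.493, so the responses were not shown to differ after correction. In order of level, control tunicamycin stood above null tunicamycin, and the 2 vehicle groups, which were not shown to differ, stood lowest.

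The other Arntl probe set, 1457740_at, ran from 38.62 to 83.58 in null tunicamycin, 42.44 to 56.02 in null vehicle, 39.76 to 50.74 in control tunicamycin and 49.71 to 58.11 in control vehicle livers. It showed no rise: its changes were -0.01 ± 0.24 in null and -0.23 ± 0.24 in control livers (adjusted p = 0.985 and 0.61 in the limma fit of every probe set). The rise of Arntl therefore rests on 1425099_a_at alone. That probe set had the higher mean over all arrays only through its tunicamycin arrays. With vehicle it was the dimmer, with means of 32.1 against 48.36 in null and 41.95 against 54.77 in control livers. The rule of the brightest probe set thus chose it through the rise itself, and its brightness is no separate evidence for the rise. Where on the transcript each probe set lies was not analysed here.

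Clock encodes the partner of ARNTL and read 688.88, 534.66 and 789.4 in null tunicamycin livers at its brightest probe set, 1418659_at. Null vehicle livers read 402.06, 416.37 and 444.72, control tunicamycin livers 877.5, 782.04 and 689.9, and control vehicle livers 737.41, 403.94 and 334.96. The null arrays did not overlap, while control vehicle replicate 1 lay within the tunicamycin range. The changes were 0.42 ± 0.19 in null livers (95% interval -0.01 to 0.84, adjusted p = 0.173) and 0.49 ± 0.19 in control livers (95% interval 0.07 to 0.92, adjusted p = 0.0843), and neither was called. Without control vehicle replicate 1 both were called, at 0.42 in null livers (adjusted p = 0.0456) and 0.75 in control livers (adjusted p = 0.00318). Of 27 alternatives the null change was called in 1 and the control change in 5. With all arrays kept, the control change was called with array medians centred (0.71, adjusted p = 0.048) and array quality weights (0.56, adjusted p = 0.0225). It was also called with probe sets averaged per gene (0.74, adjusted p = 0.0238). With the 5′ to 3′ ratio of the actin control probe sets as a covariate the control value was 0.14 (adjusted p = 0.753).

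All 4 Clock probe sets had positive changes in both genotypes, from 0.21 to 1.19 in null and from 0.37 to 1.56 in control livers. The dimmest, 1439314_at, was called in control livers (1.56 ± 0.46, adjusted p = 0.0416 over every probe set). It read 140.47, 137.71 and 96.12 in control tunicamycin livers, against 58.73, 21.17 and 18.42 in control vehicle livers. Npas2, the relative of Clock, ran from 1.37 to 16.02 over both of its probe sets and all 12 arrays, below the filter on dim probe sets, and its probe sets carried no call in any comparison.

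**Figure D2:**
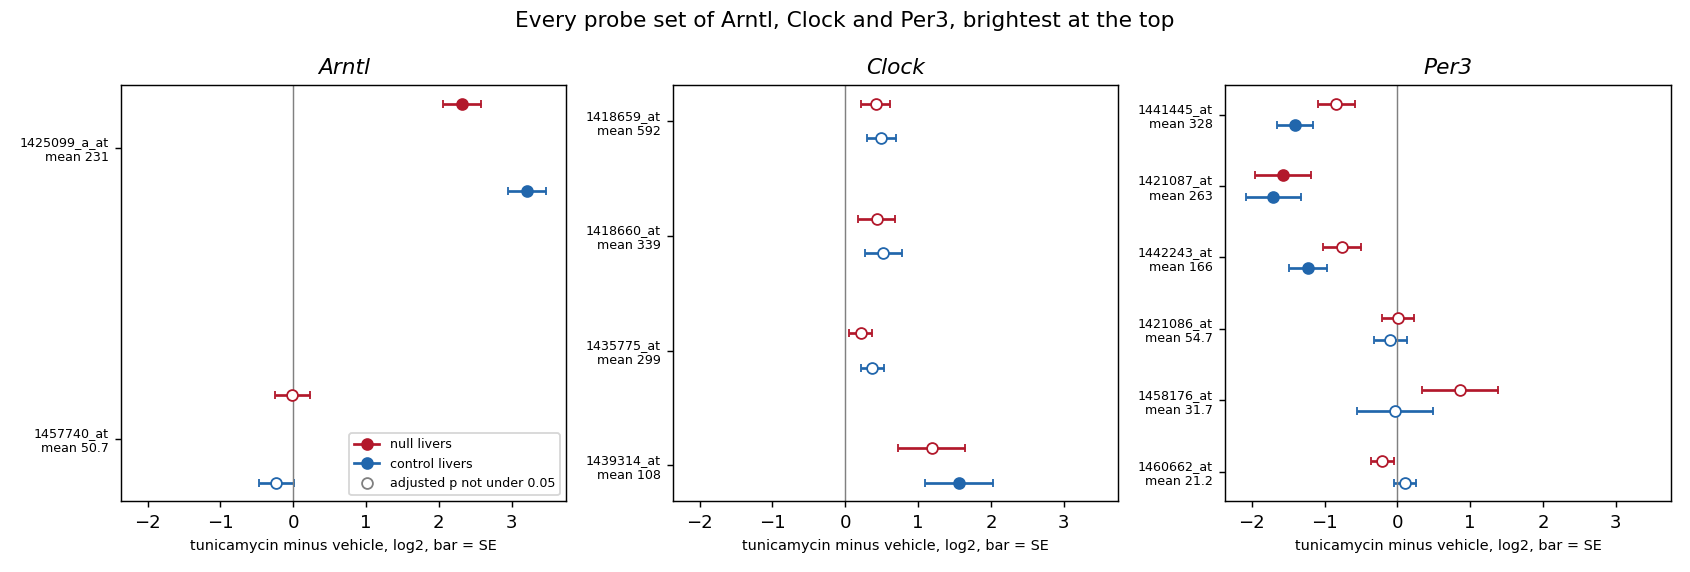
Change with tunicamycin of every Arntl, Clock and Per3 probe set, in log2 units with bars of 1 standard error, from the limma fit of every probe set; the mean deposited intensity over the 12 arrays stands under each name. Filled points passed an adjusted p of 0.05. The 3 brightest Per3 probe sets lie left of 0 in both genotypes, and the dimmer Arntl probe set lies near 0.

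The proteins of the 3 period genes inhibit the CLOCK and ARNTL pair. In control livers Per1 rose, Per3 fell and Per2 was not called, and in null livers only Per3 was called. Per1, which also responds quickly to signals from outside the loop, read 1188.7, 1049.18 and 1290.25 in null tunicamycin livers. Null vehicle livers read 707.87, 908.49 and 597.98. Control tunicamycin livers read 1497.8, 2174.98 and 1965.67, and control vehicle livers 156.49, 685.84 and 549.29. Tunicamycin arrays lay above vehicle arrays in both genotypes, and control tunicamycin arrays lay above null tunicamycin arrays.

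Per1 rose in control livers by 1.95 ± 0.44 (3.9-fold, adjusted p = 0.0062). In null livers the change was 0.43 ± 0.44 (95% interval -0.52 to 1.38, adjusted p = 0.553). Control vehicle replicate 1, the lowest array, gave Per1 the largest spread of any member in a group (SD of 1.19 log2 units). Without it the rise in control livers was 1.26 (adjusted p = 0.00138) and the null value was 0.43 (adjusted p = 0.139). The difference between the responses was -1.52 ± 0.62, with an unadjusted p of 0.03 and an adjusted p of 0.492, and it was -0.83 without that array. Null and control livers differed by -0.59 ± 0.44 under tunicamycin (adjusted p = 0.578) and by 0.92 ± 0.44 with vehicle (adjusted p = 0.988), where the value without that array was 0.24.

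Per3, a period gene that the loop can do without, fell in both genotypes. At 1441445_at it read 513.62, 187.14 and 295.13 in null tunicamycin livers and 520.61, 525.76 and 375.17 in null vehicle livers. Control tunicamycin livers read 175.23, 157.12 and 101.55, and control vehicle livers 410.48, 369.64 and 303.69. The control groups did not overlap, whereas null tunicamycin replicate 1 lay within the null vehicle range. The fall was -1.41 ± 0.25 in control livers (2.6-fold lower, adjusted p = 0.00143) and -0.84 ± 0.25 in null livers (1.8-fold lower, adjusted p = 0.039).

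The call in null livers was lost in 13 of 27 alternatives, and the value stayed below 0 in all of them. It was lost without null tunicamycin replicate 2 (-0.62, adjusted p = 0.115) or replicate 3 (-0.74, adjusted p = 0.121), without null vehicle replicate 1 (-0.72, adjusted p = 0.132) or replicate 2 (-0.80, adjusted p = 0.0932), without control tunicamycin replicate 2 (-0.84, adjusted p = 0.0536) and without control vehicle replicate 2 (-0.84, adjusted p = 0.0526). Under tunicamycin each null array lay above each control array, with a difference of 0.97 ± 0.25 (adjusted p = 0.0517). That difference was called without null tunicamycin replicate 2, the array with kidney transcripts (1.19, adjusted p = 0.0219). With vehicle the difference was 0.40 ± 0.25 (adjusted p = 0.988), and the responses differed by 0.57 ± 0.35 (adjusted p = 0.772).

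Of the 6 Per3 probe sets the 3 brightest fell in control livers: 1441445_at as above, 1421087_at with a change of -1.70 ± 0.38 (adjusted p = 0.00968) and 1442243_at with -1.23 ± 0.26 (adjusted p = 0.00685). Of these, 1421087_at also fell in null livers, with a change of -1.57 ± 0.38 (adjusted p = 0.0241). In that fit of every probe set 1441445_at had an adjusted p of 0.0607 in null livers. The 3 dimmer probe sets, with mean intensities of 21.17 to 54.66, had no call, and their changes ran from -0.21 to 0.86 in null and from -0.10 to 0.10 in control livers.

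Over all 23 probe sets of the clock genes, 1 rose and 1 fell in null livers (4.23% and 4.39% of 34945 fitted), 3 rose and 3 fell in control livers (7.67% and 7.03%), and under tunicamycin 0 were higher (0.266%) and 1 was lower (2.01%) in null than in control livers.

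Per2 read 547.6, 220.62 and 337.67 in null tunicamycin livers, 465.63, 304.62 and 305.7 in null vehicle livers, 342.09, 223.19 and 211.01 in control tunicamycin livers and 328.79, 388 and 276.97 in control vehicle livers. The changes at this brightest probe set, 1417602_at, were -0.26 ± 0.26 in null livers (95% interval -0.83 to 0.31, adjusted p = 0.55) and -0.54 ± 0.26 in control livers (95% interval -1.11 to 0.03, adjusted p = 0.16). The 3 Per2 probe sets did not point one way: 1457350_at had changes of 0.47 ± 0.35 and 0.44 ± 0.35 in null and control livers, and 1417603_at had -0.03 ± 0.15 and -0.00 ± 0.15. None was called.

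**Figure D3:**
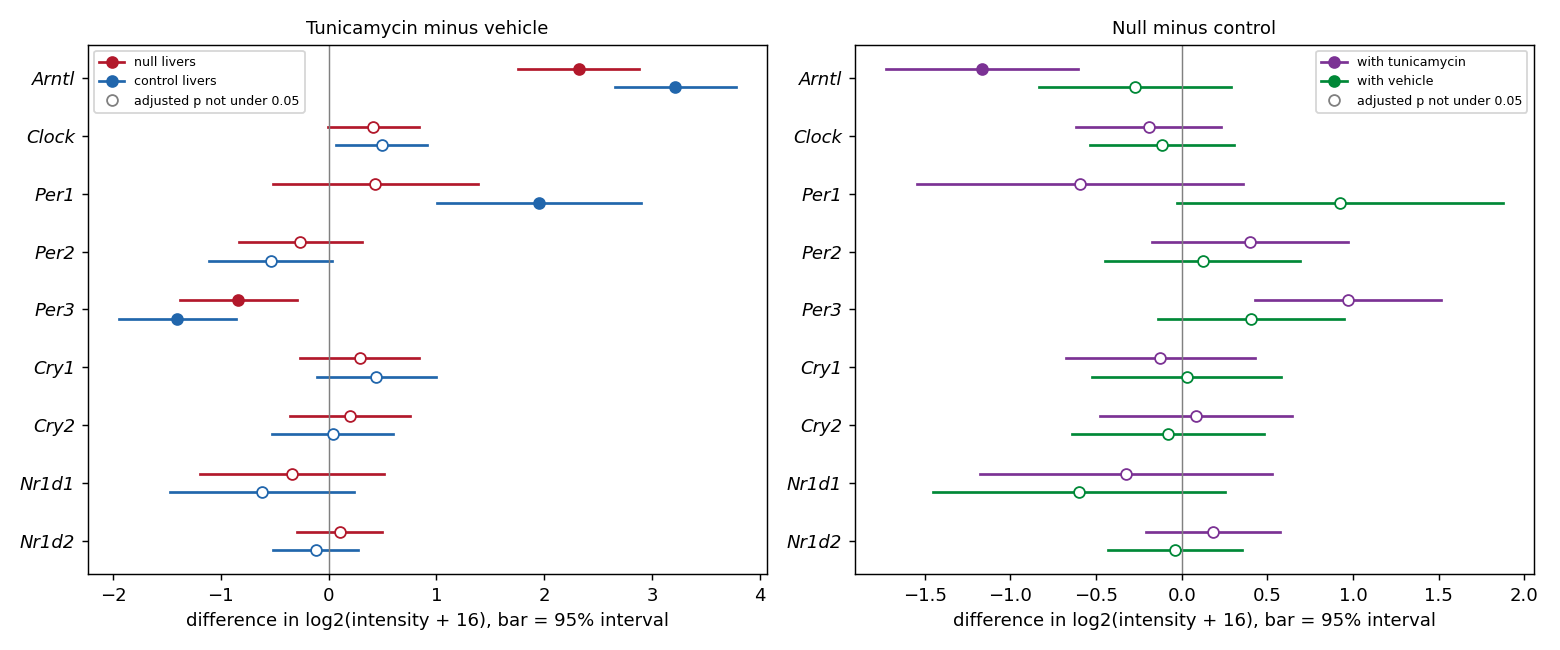
Differences of the 9 tested clock genes in log2 units with 95% intervals, tunicamycin minus vehicle on the left and null minus control on the right. Filled points passed an adjusted p of 0.05: Arntl, Per1 and Per3 on the left, and on the right Arntl under tunicamycin at -1.17.

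The cryptochromes, the other inhibitors of the loop, carried no call. Cry1 read 477.24, 466.12 and 614.82 in null tunicamycin livers, 372.72, 307.48 and 404.42 in null vehicle livers, 847.92, 484.19 and 455.96 in control tunicamycin livers and 270.07, 435.19 and 385.93 in control vehicle livers. Each tunicamycin array lay above each vehicle array of its genotype on the deposited scale, but not after normalization. The changes were 0.29 ± 0.25 in null livers (95% interval -0.26 to 0.84, adjusted p = 0.486) and 0.44 ± 0.25 in control livers (95% interval -0.11 to 0.99, adjusted p = 0.233). Cry2 read 545.68, 474.88 and 798.34 in null tunicamycin livers, 262.96, 603.24 and 521.82 in null vehicle livers, 588.72, 534.22 and 593.57 in control tunicamycin livers and 402.36, 497.36 and 538.33 in control vehicle livers. Its groups overlapped, with changes of 0.20 ± 0.26 in null (95% interval -0.36 to 0.76) and 0.04 ± 0.26 in control livers (95% interval -0.52 to 0.60).

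The REV-ERB genes, which encode the heme-binding repressors of Arntl, were not called either. Nr1d1 read 118.25, 53.02 and 56 in null tunicamycin livers, 51.42, 118.66 and 91.86 in null vehicle livers, 79.03, 113.12 and 78.44 in control tunicamycin livers and 302.39, 80.97 and 94.17 in control vehicle livers. Apart from the 302.39 of control vehicle replicate 1, the 11 values overlapped across all 4 groups. The change was -0.34 ± 0.39 in null livers (95% interval -1.20 to 0.51, adjusted p = 0.607) and -0.62 ± 0.39 in control livers (95% interval -1.47 to 0.24, adjusted p = 0.287). Without that array the control value was -0.13 (adjusted p = 0.808). Both intervals hold the value of -0.84 seen for Per3 in null livers, so a change of that size was not excluded for Nr1d1.

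Nr1d2 read 4650.9, 3722.01 and 3358.5 in null tunicamycin livers, 2627.07, 3214.89 and 3659.29 in null vehicle livers, 3854.05, 3232.3 and 3806.86 in control tunicamycin livers and 3161.19, 3890.06 and 3102.67 in control vehicle livers. Its changes had the narrowest intervals among the clock genes, 0.10 ± 0.18 in null livers (95% interval -0.29 to 0.49) and -0.12 ± 0.18 in control livers (95% interval -0.51 to 0.27). The dimmer Nr1d2 probe set, 1416959_at, showed 0.17 ± 0.33 and -0.21 ± 0.33. On it, too, control vehicle replicate 1 was the highest array, at 154.36 against 41.58 and 55.56 in the other control vehicle livers.

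Between genotypes, none of the 9 genes was called with vehicle (0% of all genes were), and none had an unadjusted p under 0.05, while 597 of all 14568 genes did. Under tunicamycin 0 members were higher in null livers (0.755% of all genes were) and 1 was lower, Arntl (3.23%). The limma interaction called 0 members (0.837% of all genes), and 2, Per1 and Arntl, had an unadjusted p under 0.05 (8.26% of all genes did). In terms of arrays that did not overlap, the members gave 3 of 9 for tunicamycin in null livers (33.1% of all genes), 4 of 9 in control livers (42.6%), 3 of 9 between genotypes under tunicamycin (21.8%) and 1 of 9 with vehicle (8.15%). The comparisons share arrays, since the null tunicamycin arrays enter both the null response and the comparison of genotypes.

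Beyond the core loop, a list of 15 genes that the clock drives had 13 measured members. In null livers 1 rose and 5 fell, with a median change of -0.62, and in control livers 1 rose and 7 fell, with a median of -0.76, against medians of -0.07 and -0.11 over all genes. Over all genes 7.59% rose and 9.23% fell in null livers, and 11.6% rose and 13.3% fell in control livers. With values as deposited 1 rose and 1 fell in null livers. The gene that rose was Nfil3 in both genotypes. It encodes a repressor of D-boxes, and it rose by 2.23 ± 0.20 in null livers (adjusted p = 2.52e-05) and by 2.22 ± 0.20 in control livers (adjusted p = 1.14e-05). Nfil3 ran from 641.12 to 1019.31 in null tunicamycin livers against 114.97 to 201.83 in null vehicle livers, and from 847.97 to 1209.49 in control tunicamycin livers against 131.7 to 192.36 in control vehicle livers.

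Hlf and Dbp, which encode activators of D-boxes, fell in both genotypes. Hlf fell by 1.08 ± 0.20 on the log2 scale in null livers (adjusted p = 0.00382) and fell by 2.10 ± 0.20 in control livers (adjusted p = 1.87e-05). Dbp fell by 0.98 ± 0.27 in null livers (adjusted p = 0.0294) and fell by 1.56 ± 0.27 in control livers (adjusted p = 0.0013). Wee1, a kinase that restrains entry into mitosis, fell by 1.07 ± 0.32 in null livers (adjusted p = 0.0381) and fell by 2.26 ± 0.32 in control livers (adjusted p = 0.000285). Pnp, a purine nucleoside phosphorylase, fell by 0.73 ± 0.15 in null livers (adjusted p = 0.00543), and fell by 0.76 ± 0.15 in control livers (adjusted p = 0.00244). Noct, the nocturnin phosphatase, fell by 1.60 ± 0.27 in null livers (adjusted p = 0.00191), with a value of 0.14 ± 0.27 in control livers (adjusted p = 0.753).

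Under tunicamycin 3 of the 13 output genes were higher and 1 was lower in null than in control livers, where 0.755% of all genes were higher and 3.23% were lower. Hlf ran from 293.62 to 616.21 in null against 119.46 to 216.82 in control livers, a difference of 1.36 ± 0.20 (adjusted p = 0.00244). Wee1 ran from 359.21 to 791.27 in null against 107.22 to 176.73 in control livers, a difference of 1.69 ± 0.32 (adjusted p = 0.0101). Usp2, a deubiquitinase, ran from 1517.12 to 2370.35 in null against 610.64 to 897.96 in control livers, a difference of 1.36 ± 0.32 (adjusted p = 0.0347). Noct ran from 943.94 to 1448.18 in null against 1698.04 to 3533.17 in control livers, a difference of -1.14 ± 0.27 (adjusted p = 0.0377). The count of 4 fell to 2 without any 1 of null tunicamycin replicates 1 and 2, null vehicle replicate 2 and control tunicamycin replicates 1, 2 and 3. With vehicle limma called 0 of the 13 (0% of all genes), with 1 at an unadjusted p under 0.05 (4.1% of all genes). The interaction called 0 (0.837% of all genes), with 3 at an unadjusted p under 0.05 (8.26% of all genes). For the interaction the smallest adjusted p of the 13 was 0.067, for Noct, at -1.74 ± 0.38.

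**Figure D4:**
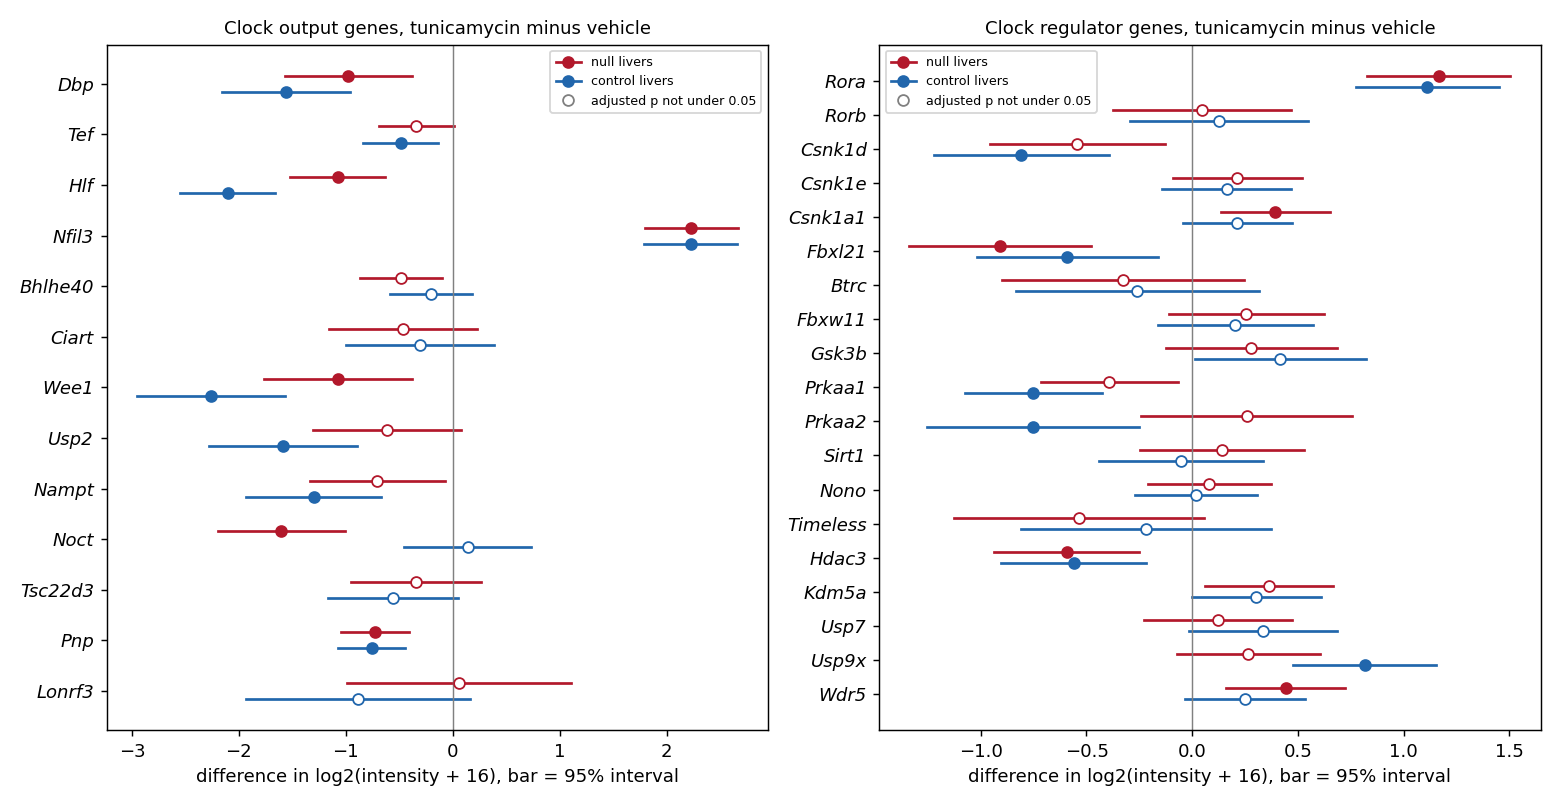
Change with tunicamycin in log2 units, with 95% intervals, of the measured clock output genes (left, 13) and clock regulator genes (right, 19), null livers above control livers for each gene. Filled points passed an adjusted p of 0.05; Nfil3 lies at 2.23 and 2.22, and Hlf and Wee1 lie farther left in control livers (-2.10 and -2.26) than in null livers (-1.08 and -1.07).

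Of 23 listed kinases, ubiquitin ligases, receptors and cofactors that act on the loop 19 were measured, of which 3 rose and 2 fell in null livers, and 2 rose and 5 fell in control livers. Over all genes 7.59% rose and 9.23% fell in null livers, and 11.6% rose and 13.3% fell in control livers. The 2 that fell in null livers and the 2 that rose in control livers lay near these shares. The 3 that rose in null livers and the 5 that fell in control livers lay above them, and the list was not tested as a set. Rora, the receptor that activates Arntl from the same element that the REV-ERB proteins use, rose by 1.17 ± 0.16 in null livers (adjusted p = 0.00042) and by 1.11 ± 0.16 in control livers (adjusted p = 0.000277). It ran from 3542.25 to 5448.95 in null tunicamycin livers against 1585.19 to 1881.8 in null vehicle livers, and from 4030.32 to 5166.58 in control tunicamycin livers against 1766.3 to 1986.81 in control vehicle livers.

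In null livers Wdr5, a histone methyltransferase subunit, rose by 0.44 ± 0.13 (adjusted p = 0.0375). Its value in control livers was 0.25 (adjusted p = 0.188). Fbxl21, a ubiquitin ligase subunit that acts on cryptochromes, fell in both genotypes, by 0.91 ± 0.20 on the log2 scale in null livers (adjusted p = 0.00858) and fell by 0.59 ± 0.20 in control livers (adjusted p = 0.0465). Fbxl21 was dim, at 22.24 to 33.32 in null tunicamycin livers against 55.52 to 73.24 in null vehicle livers. In control livers it ran from 24.87 to 29.76 with tunicamycin against 33.09 to 56.9 with vehicle. Hdac3, the histone deacetylase of the REV-ERB corepressor complex, also fell in both, and fell by 0.59 ± 0.16 in null livers (adjusted p = 0.0228) and fell by 0.56 ± 0.16 in control livers (adjusted p = 0.0209). In control livers Usp9x, a deubiquitinase, rose by 0.82 ± 0.16 (adjusted p = 0.00236). Prkaa1, a catalytic subunit of AMP-activated kinase, fell by 0.75 ± 0.15 (adjusted p = 0.00294), and Csnk1d, a kinase that phosphorylates PER proteins, fell by 0.81 ± 0.19 (adjusted p = 0.00807). In null livers these 3 had values of 0.27 for Usp9x (adjusted p = 0.283), -0.39 for Prkaa1 (adjusted p = 0.0947) and -0.54 for Csnk1d (adjusted p = 0.0717), and limma called none of the 3 differences between the responses. The control count of 7 fell to 4 without control tunicamycin replicate 1 or control vehicle replicate 3, and the null count of 5 fell to 3 without any 1 of the 3 null tunicamycin, 3 null vehicle or 3 control tunicamycin arrays. Between genotypes limma called 0 of the 19, under tunicamycin and with vehicle. Under tunicamycin 2 had an unadjusted p under 0.05 (15.6% of all genes did), and with vehicle 0 had (4.1% of all genes). The interaction called 0, with 2 at an unadjusted p under 0.05 (8.26% of all genes). The split of the regulators depended on the scaling: with array medians centred 3 rose and 1 fell in null and 5 rose and 2 fell in control livers, and with values as deposited 5 rose and 1 fell in null and 4 rose and 3 fell in control livers. The median change of all genes was 0.01 in null and -0.01 in control livers with medians centred, 0.08 in null and 0.01 in control livers as deposited, and -0.07 in null and -0.11 in control livers with quantile normalization.

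The genes whose pattern over the 12 arrays was most like that of Arntl were Uggt1 (r = 0.9867), Osbp (0.9847), Ube2j2 (0.9847), Sec11a (0.9827) and Shc4 (0.9817), by Pearson's r of the normalized log2 values. The least like were Hipk2 (r = -0.9826), Ppl (-0.9822), Fam102a (-0.9793), Zfp395 (-0.9791) and Pbld1 (-0.9781). The arrays fall into a tunicamycin and a vehicle set for Arntl, so these values mainly restate that split and are a description of the 12 arrays. For Nr1d1 the most alike were Psmd10 (r = 0.9082), Rfc3 (0.9012), Znfx1 (0.892), Sdcbp2 (0.8843) and Lum (0.8792), and the least alike Mrpl57 (-0.904), Odf2 (-0.8974), Fmn1 (-0.8775), Tctn1 (-0.8652) and Mt2 (-0.8639). Without control vehicle replicate 1 the r of these most alike genes ran from 0.7337 (Znfx1) to 0.8719 (Lum), with Psmd10 at 0.7735. That of the least alike genes ran from -0.8572 (Mrpl57) to -0.5533 (Mt2).

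Markers of other cells and RNA quality were read beside the clock genes. Of 8 Kupffer cell markers 2 fell in null livers (9.23% of all genes fell) and 1 fell in control livers (13.3% of all genes fell), with a median change of -0.57 in each. Their mean log2 level ran from 8.28 to 9.02 in null tunicamycin livers against 8.98 to 9.35 in null vehicle livers, and from 8.91 to 9.34 in control tunicamycin livers against 9.45 to 9.85 in control vehicle livers, and their part in the results was not tested. None of the 7 endothelial, 7 stellate cell, 3 bile duct and 5 lymphocyte markers measured was called with tunicamycin in either genotype, although the bile duct list had a median change of 1.38 in null livers, where replicate 2 stood apart, and -0.19 in control livers. The 5′ to 3′ ratio of the actin control probe sets, which falls as RNA degrades, ran from 0.205 to 0.434 in null tunicamycin livers against 0.296 to 0.633 in null vehicle livers (two-sided exact permutation p = 0.2). It ran from 0.295 to 0.389 in control tunicamycin livers against 0.454 to 1.1 in control vehicle livers (exact permutation p = 0.1, two-sided, and 3 arrays against 3 can give no smaller p). With this ratio as a covariate Arntl changed by 2.28 in null livers (adjusted p = 0.000557) and by 3.13 in control livers (adjusted p = 0.000383), Per1 by 2.69 in control livers (adjusted p = 0.00779) and Per3 by -1.63 in control livers (adjusted p = 0.0102).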

How the data were processed

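Trizol RNA of mouse livers was turned into biotinylated cRNA and read on Affymetrix arrays, per the labels' protocols. The authors deposited 1 linear intensity per probe set and array; the algorithm that summarised the probes and any scaling are, in the sources used here, not given. No 2 arrays held identical values. The members and gene lists were chosen with earlier results of these data known.

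Of 45101 probe sets 64 were controls, 34945 had 1 gene symbol in the platform annotation, 932 had several and 9160 had none, and only those with 1 were used. Deposited intensities were transformed to log2(intensity + 16) and quantile normalized, the dimmest 30% of probe sets by mean over the 12 arrays were left out, and a gene was read by its brightest probe set. Group means were fitted over all 12 arrays with lmFit and eBayes of limma 3.58.1 (R 4.3.3; 8 residual degrees of freedom), in 5 comparisons, with the Benjamini-Hochberg adjustment over 14568 genes; a separate limma fit took all 34945 probe sets without a filter. Besides the members, genes were named by rule: Ern1, Ddit3 and Hspa5 as checks, up to 4 called genes of each list and comparison by smallest p, and the 5 highest and 5 lowest Pearson r with Arntl and Nr1d1; a gene named for 1 comparison may be given in others. Hspa5 rose by 1.83 ± 0.19 in null and 1.48 ± 0.19 in control livers. The limma fit alone was tested on simulated data, drawn on the normalized log2 scale for 14568 genes. For a control response limma called 59% of 100 genes given a change of 1 log2 unit. It called 94% of 100 given 2 units, with 10 false calls. The scaling, the filter and the choice of probe set were not simulated. Far more genes were called in the real control livers (1693 rose and 1943 fell), so these rates need not hold there. Alternatives were other pseudocounts, filters, scalings, probe set rules, limma options, covariates, the replicate number as a block, and leaving out arrays. Replicate numbers 1 to 3 are shared by the groups, but no label links them. Figures were drawn with matplotlib 3.10.9.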

Additional observations from a re-analysis of the deposited data

How the results depend on the processing

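With 3 arrays per group the arrays' number limits the precision. Over 1206 recomputed member values none that was called changed sign, 41 that were not called did, 24 calls were lost and 12 gained. Arntl in both genotypes and Per1 and Per3 in control livers kept their calls in all 27 alternatives. The 1 member called between genotypes under tunicamycin became 2 with 50% of dim probe sets left out, array quality weights or eBayes with trend and robust options, and 0 with the covariate of the Gapdh ratio, probe sets averaged per gene, only the groups compared, a pseudocount of 1 or values as deposited. Leaving out 1 array at a time gave 0 to 1, with 0 without null tunicamycin replicate 1, control tunicamycin replicate 1 or control tunicamycin replicate 2. The 2 members called for tunicamycin in null livers became 1 with array medians centred, array quality weights, probe sets averaged per gene, only the groups compared, a pseudocount of 1, values as deposited, or null tunicamycin replicate 2 and control vehicle replicate 1 left out together, which was chosen after seeing the data. Leaving out 1 array at a time gave 1 to 3, with 1 without null tunicamycin replicate 2 or 3, null vehicle replicate 1 or 2, control tunicamycin replicate 2 or control vehicle replicate 2, and 3 without control vehicle replicate 1. The cause of these shifts was not tested.

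Deviations of same-numbered arrays from their group means correlated at r from -0.41 to 0.49 over the pairs. Differently numbered arrays were not compared, so these values cannot settle whether the numbers pair samples. With the replicate block 2 members were called for tunicamycin in null livers and 3 in control livers, and between genotypes under tunicamycin the call passed to Per3 (0.97, adjusted p = 0.0311), with Arntl at an adjusted p of 0.0505. The clock output genes called between genotypes under tunicamycin numbered 2 with the block, against 4 without, and also 2 with a pseudocount of 1.

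Other counts that moved by over 1.5 times were the clock output genes for tunicamycin in control livers (8, and 5 after adjusting for the actin ratio) and in null livers (6, and 2 as deposited), and for the interaction (0, and 1 with array quality weights, trend and robust options, averaged probe sets or a pseudocount of 64). Clock regulators called for tunicamycin in control livers numbered 3 with the actin ratio, against 7 without it, and in null livers 3 with the actin ratio or with null tunicamycin replicate 2 and control vehicle replicate 1 left out, against 5, and 2 with only the groups compared. Between genotypes under tunicamycin the regulators had 0 calls, but 2 with 50% of dim probe sets left out, array quality weights, trend and robust options or a pseudocount of 64, and 1 with medians centred, values as deposited, the Gapdh ratio, or without null tunicamycin replicate 2, null vehicle replicate 1, null vehicle replicate 2 or the 2 arrays left out together.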
